A study of Homo sapiens with 4 samples.

Results

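The long noncoding RNAs (lncRNAs) transcribed from the HOXB, HOXC and HOXD gene clusters were followed in cells labelled HepG2. They were the transcripts whose gene name in GENCODE release 29 is *HOXB-AS1*, *HOXB-AS2*, *HOXB-AS3*, *HOXB-AS4*, *HOXC-AS1*, *HOXC-AS2*, *HOXC-AS3*, *HOXC13-AS*, *HOTAIR* or *HAGLR*. These 10 genes, of 29585 named genes in the table, had 52 transcripts, of 106179 in all. A count above 0 in some library was found for 24 of the 52, and the other 28 were at 0 throughout. The members were picked by name and not by a measured value.

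Total RNA was sequenced from 2 libraries of cells labelled oxaliplatin resistant and 2 libraries of cells labelled wild type. All 4 carried the cell line label HepG2, the name of a line from a human hepatocellular carcinoma, and were grown in DMEM with serum. The study asked which long intergenic RNAs differ between cells selected for oxaliplatin resistance and their wild-type line. Oxaliplatin is a platinum drug that crosslinks DNA. Neither the dose, nor the length of selection, nor whether the resistant line is 1 clone, nor whether the libraries of a group are separate cultures is given in the labels, so p-values measure only the spread between these libraries. Library totals were 43473826 and 44063444 estimated counts in resistant cells and 38113398 and 34898860 in wild-type cells. The liver label was set against 25 hepatocyte marker names, of which 18 had a gene in the table. Only noncoding transcripts can be read there, and 13 of the 18 were at 0 in every library, among them *AFP*, *SERPINA1*, *TF* and the liver lncRNA *LINC00261*. Of the 5 with a count, *FGG* had 8 and 74 counts in the resistant libraries and 3 and 9 in the wild-type libraries. *LINC01554* had 23 and 16 counts in the resistant libraries and 5 and 8 in the wild-type libraries. *CYP3A5* had 12 and 4 counts in the resistant libraries and 15 and 22 in the wild-type libraries. *ALB* and *APOA2* had at most 8 counts in any library. The summed level of the marker list was 1.20 and 2.68 CPM (counts scaled to the same total in each library) in resistant cells and 1.05 and 1.51 CPM in wild-type cells. The corresponding sums of 16 fibroblast marker genes, of which 12 had a count, were 389 and 308 CPM in resistant cells and 410 and 441 CPM in wild-type cells, led by *VIM*, *FN1* and *MIR100HG*, while *COL1A2*, *PRRX1* and *LUM* were at 0. Endothelial markers summed to 17.8 and 13.3 CPM in resistant cells and 5.82 and 7.13 CPM in wild-type cells. The group difference in this sum lay in *ERG*, with 450 and 270 counts in the resistant libraries and 0 in both wild-type libraries. *ENG* had 5.72 and 5.96 CPM in resistant cells and 5.71 and 7.13 CPM in wild-type cells. *KDR* was at 0, and *PECAM1* and *VWF* had at most 3 counts in any library. Neuronal markers summed to 7.40 and 7.38 CPM in resistant cells and 4.29 and 6.24 CPM in wild-type cells. Leukocyte markers summed to under 1 CPM in every library. As far as noncoding transcripts can show it, hepatocyte markers mostly at 0 and otherwise low go against the liver label. The cells are therefore called here by their labels alone. The part of any list in the values below was not tested, and in bulk RNA fewer cells of a type and less RNA per cell cannot be told apart.

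HOX genes encode homeodomain transcription factors that set position along the body axis. They lie in 4 clusters, and within each cluster genes are switched on in the order in which they lie, under control of Polycomb and Trithorax chromatin complexes. Antisense lncRNAs are transcribed between and across these genes. *HOTAIR*, between *HOXC11* and *HOXC12*, was described in fibroblasts as an RNA that binds the Polycomb complex PRC2 and the demethylase LSD1 and silences genes of the HOXD cluster, and its level is raised in several carcinomas. *HAGLR*, also called HOXD-AS1, starts beside *HOXD1* and has been reported in liver cancer, and *HOXB-AS3* has been reported to encode a small peptide.

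The members were rare RNAs in both groups. Together they held 1776 and 957 counts in the resistant libraries and 1023 and 610 counts in the wild-type libraries. As a share of the library this was 0.00409% and 0.00217% in resistant cells, against 0.00268% and 0.00175% in wild-type cells. Their summed levels were 47.3 and 26.2 CPM in resistant cells and 34.6 and 22.4 CPM in wild-type cells. *HOXC13-AS* alone gave 44.3% of all member counts. The 6 lncRNA genes of the HOXA cluster, which are not members, summed to 79.8 and 97.0 CPM in resistant cells and 56.6 and 75.5 CPM in wild-type cells, above the member sum in each library. Most of this was *HOTAIRM1*, with 71.2 and 85.9 CPM in resistant cells and 46.8 and 63.9 CPM in wild-type cells. No other of these genes was above 5.85 CPM in any library. Without *HOTAIRM1* the HOXA sum lay below the member sum in each library.

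Set per length, as CPM per kilobase of transcript averaged over the 4 libraries, the order was *HOXC13-AS* (10.1), *HOXB-AS1* (8.21), *HOTAIR* (5.48), *HOXB-AS4* (3.83), *HOXC-AS1* (2.43), *HOXB-AS3* (2.37), *HOXC-AS3* (1.62), *HOXB-AS2* (0.889), *HAGLR* (0.562) and *HOXC-AS2* (0.295). Each of the 9 neighbouring pairs in this order overlapped over the libraries, so no step of the order is larger than the spread. *HOXC13-AS* ranged from 7.04 to 16.1 CPM per kilobase and *HOTAIR* from 0.784 to 13.1. Among all genes that passed the expression filter, the mean CPM of the members lay between the percentiles 8.84 (*HOXC-AS2*) and 55.7 (*HOXC13-AS*).

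**Figure D1:**
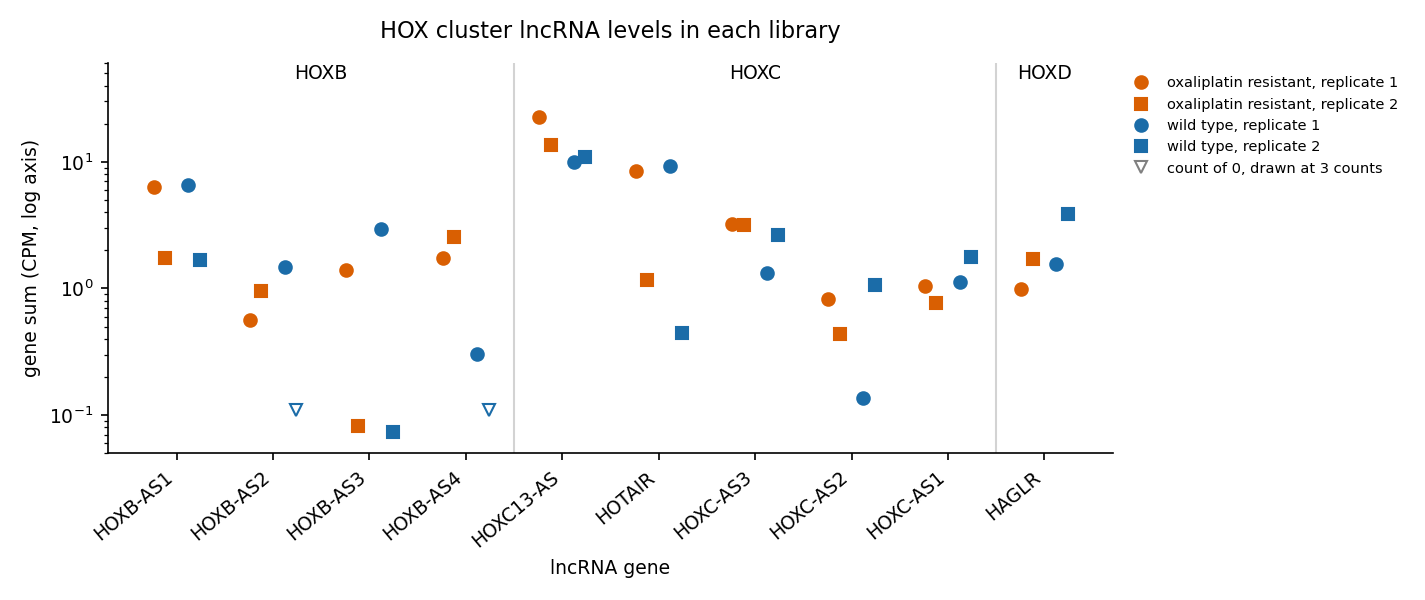
Level of each HOX cluster lncRNA gene in each library, as the sum over its transcripts in CPM on a log axis. Orange marks stand for oxaliplatin resistant and blue marks for wild-type libraries, circles for replicate 1 and squares for replicate 2, and open triangles for a count of 0 drawn at 3 counts. *HOXC13-AS*, *HOXC-AS3* and *HOXB-AS4* have both resistant libraries above both wild-type libraries.

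No member passed the test between resistant and wild-type cells. All 10 genes passed the filter, and the quasi-likelihood test of edgeR, adjusted by Benjamini-Hochberg over 13745 genes, called 0 of the 10 members, with 0% of all genes called. At an unadjusted p under 0.05 edgeR also gave 0 of 10 members, against 8.67% of all genes. limma-voom called 0 of all genes, and DESeq2 called 0 of the 10, where DESeq2 called 4.6% of all genes. The log2 fold change was above 0 for 5 members and below 0 for 5, with a median of 0.01 for the members and 0.01 for all tested genes. The resistant libraries both lay above the wild-type libraries for 3 members, against 22.5% of all genes, and both below for 1, against 20.5%. The groups thus did not overlap for 4 of 10 members, near the background of 43%.

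Among transcripts, 14 of the 52 passed the filter, and edgeR called 0 of the 14, with 0% of 42393 tested transcripts called. At an unadjusted p under 0.05 edgeR gave 2 of the 14, against 7.74% of all transcripts, and limma-voom called 0. DESeq2 called 1 of the 14, against 5.33%. Both resistant libraries lay above both wild-type libraries for 5 of the 14, against 21.4% of all transcripts, and below for 1, against 18.9%, in all 40.3% without overlap among all transcripts.

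**Figure D2:**
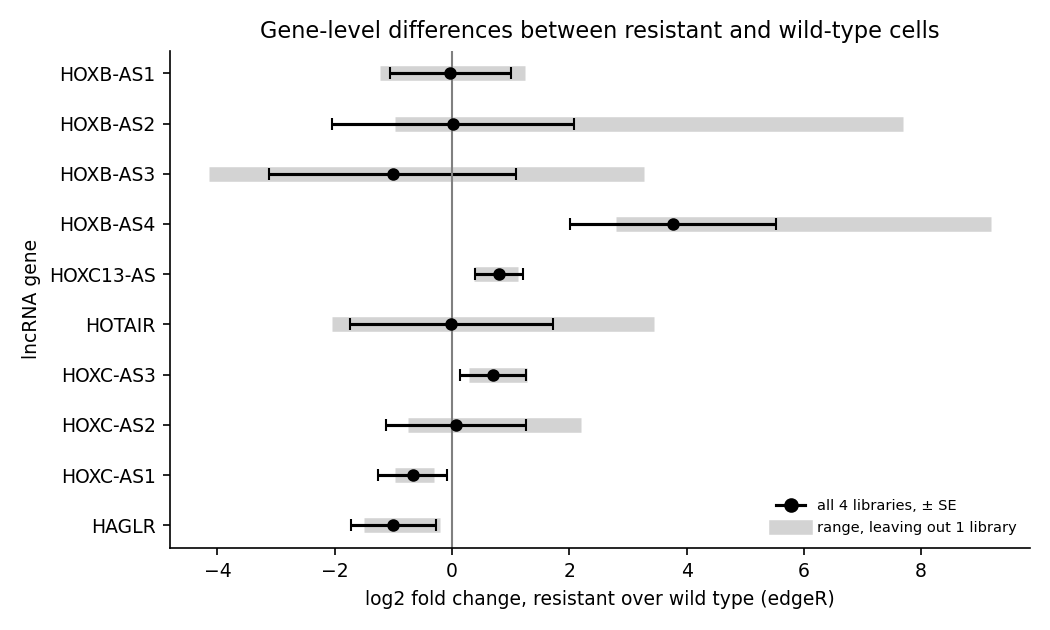
Log2 fold change of each HOX cluster lncRNA gene, resistant over wild type, from edgeR. Points are the fit on 4 libraries with its SE, and grey bars span the values when 1 library is left out in turn. Of the 10 genes, 5 have a grey bar that crosses 0, and *HOXB-AS4* spans 2.80 to 9.19.

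*HOXB-AS4*, which lies on the plus strand between *HOXB9* and *HOXB13* at GRCh38 chr17:48628675-48634932, had the largest ratio of means among the members. It had 65 and 94 counts in the resistant libraries and 9 and 0 counts in the wild-type libraries. Both resistant libraries were high and both wild-type libraries were low, without overlap. The level was 2.15 ± 0.593 CPM in resistant cells and 0.152 ± 0.215 CPM in wild-type cells (SD, n = 2 each), a mean 14.1 times as high. edgeR estimated a log2 fold change of 3.78 (SE 1.75, adjusted p = 0.678), which did not pass. It came to 9.19 without wild-type replicate 1, where the wild-type side is at 0 and the fitted value depends on the prior count.

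The counts of *HOXB-AS4* sat on different transcripts in different libraries. ENST00000462131, with 2 exons and 214 bases, had 65 and 27 counts in the resistant libraries and 0 in both wild-type libraries. Its resistant mean was 11.7-fold higher than a limit of 3 counts per wild-type library. This limit allows for counting error in the wild-type libraries only, not in the resistant counts. In edgeR its unadjusted p was 0.0130 and its adjusted p over 42393 transcripts was 0.375, while DESeq2 gave an adjusted p of 0.0136 for the same transcript. Over all alternatives its adjusted p ran from 0.0136 to 0.949. ENST00000480386, with 566 bases, had 0 and 67 counts in the resistant libraries and 9 and 0 in the wild-type libraries. Resistant replicate 1 thus held counts on the shorter transcript alone and wild-type replicate 1 on the longer alone. Being at 0 in both wild-type libraries and above 0 in both resistant libraries was seen for 2.53% of all tested transcripts.

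Both transcripts start within 30 bases of a start given by RefSeq, as the windows of 250 bases before to 50 after each start show. They are printed for GRCh38.p14, plus strand, with the transcribed 50 bases in capitals. The first, chr17:48628448-48628747, lies 23 bases from the 5′ end of ENST00000480386. The second, chr17:48629271-48629570, lies 28 bases from that of ENST00000462131. The spliced ENST00000462131 of GENCODE follows, with its first exon of 103 bases in capitals, since it is the transcript that was counted in both resistant libraries and in neither wild-type library.
HOXB-AS4 start of ENST00000480386: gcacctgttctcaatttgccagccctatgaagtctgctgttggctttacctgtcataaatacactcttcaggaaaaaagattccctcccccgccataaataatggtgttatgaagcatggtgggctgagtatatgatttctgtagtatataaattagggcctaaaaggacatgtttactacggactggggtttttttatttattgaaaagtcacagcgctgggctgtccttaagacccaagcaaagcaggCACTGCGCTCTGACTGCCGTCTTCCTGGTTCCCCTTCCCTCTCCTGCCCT
HOXB-AS4 start of ENST00000462131: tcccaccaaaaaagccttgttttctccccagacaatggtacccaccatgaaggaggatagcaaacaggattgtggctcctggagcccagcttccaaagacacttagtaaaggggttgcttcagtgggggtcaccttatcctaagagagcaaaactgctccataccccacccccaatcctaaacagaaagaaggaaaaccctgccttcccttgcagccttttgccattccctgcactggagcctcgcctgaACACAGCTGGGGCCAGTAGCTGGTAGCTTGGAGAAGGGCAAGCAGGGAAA
ENST00000462131: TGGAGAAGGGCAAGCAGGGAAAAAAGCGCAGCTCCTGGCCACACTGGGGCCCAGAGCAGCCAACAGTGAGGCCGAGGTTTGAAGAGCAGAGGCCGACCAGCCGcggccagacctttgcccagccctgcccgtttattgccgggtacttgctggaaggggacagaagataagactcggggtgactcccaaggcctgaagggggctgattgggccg

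The first 22 bases of the transcript are the last 22 of the second window. A TATA box (TATAAA, either strand) was found once in the first window and not in the second, where 11.5% of 35116 RefSeq windows hold one. A CCAAT box (CCAAT, either strand) was found in the second, as in 34.6% of all windows. The windows hold 5 and 1 CpG, against a median of 14. These matches describe letters and say nothing of a factor.

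The intron of ENST00000462131 spans the gene of miR-196a-1 on the opposite strand, at chr17:48632490-48632559. miR-196 is known to direct cleavage of the *HOXB8* mRNA. In the same way the *HOXB-AS3* gene spans that of miR-10a, at chr17:48579838-48579947. The *HAGLR* gene spans that of miR-7704, at chr2:176188843-176188901, but no counted *HAGLR* transcript reaches it. ENST00000644334, at 0 in all libraries, overlaps it with exon bases. The mature forms are printed with the seed, bases 2 to 8, in capitals. They share no seed, and the table holds no count of a mature miRNA.
hsa-miR-196a-5p: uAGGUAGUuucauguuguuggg
hsa-miR-10a-5p: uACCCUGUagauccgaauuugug
hsa-miR-7704: cGGGGUCGgcggcgacgug

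*HOXB-AS1*, at chr17:48543551-48551250, plus strand, runs against *HOXB2* and *HOXB3*. It had 237 and 64 counts in the resistant libraries and 193 and 46 counts in the wild-type libraries. In each group replicate 1 was high and replicate 2 low, and the groups overlapped. The mean level was 4.03 ± 3.22 CPM in resistant cells and 4.11 ± 3.42 CPM in wild-type cells (SD, n = 2 each), and edgeR estimated a log2 fold change of -0.03 (SE 1.03, adjusted p = 0.997). Its sign turned when 1 library was left out, to 1.25 without wild-type replicate 1 and to 0.62 without resistant replicate 2.

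The transcripts of *HOXB-AS1* differed in how they stood between the groups. ENST00000508688, of 5 exons, had the highest mean count, with 199 and 23 counts in the resistant libraries and 92 and 36 in the wild-type libraries. Of its bases 65.0% lie opposite exons of *HOXB3*. ENST00000435312, of 7 exons, had 21 and 0 counts in the resistant libraries and 94 and 9 in the wild-type libraries, and its groups overlapped (edgeR adjusted p = 0.953). Its log2 fold change was -2.62 and came to -0.23 without wild-type replicate 1. ENST00000504972, of 2 exons, had 17 and 38 counts in the resistant libraries and 1 and 1 in the wild-type libraries. ENST00000508688 led in resistant replicate 1 and wild-type replicate 2, ENST00000504972 in resistant replicate 2 and ENST00000435312 in wild-type replicate 1. ENST00000504972 was low in both wild-type libraries and high in both resistant ones, a ratio of 21.3 with an exact 95% counting interval of 5.61 to 180. Its log2 fold change was 4.28 ± 0.85 (SE), with an unadjusted p of 0.0105 and an adjusted p of 0.361 in edgeR and an adjusted p of 0.0677 in DESeq2. It came to 3.54 without resistant replicate 2 and to 4.75 without resistant replicate 1, and limma-voom gave 3.73 with an unadjusted p of 0.125. ENST00000504972 and ENST00000462131 were the 2 of 14 tested member transcripts with an unadjusted p under 0.05 in edgeR, both higher in resistant cells, against 4.56% of all transcripts in that direction.

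The start of ENST00000504972 at position 48543551 lies upstream of the start that RefSeq gives for *HOXB-AS1*, which is the 5′ end of ENST00000435312. Both starts are shown, since counts of the gene lay on transcripts from each, and the difference between these transcripts was not tested. ENST00000508688, with the highest mean count of the gene, starts downstream of both, at position 48545509, and its start is not shown. The first 150 bases of ENST00000504972 carry its exon 1 in capitals. The exon is 87 bases long, and 87 bases of the transcript lie opposite *HOXB2*. The RefSeq window, chr17:48544101-48544400, plus strand, has its transcribed 50 bases in capitals. It holds no TATA box, no CCAAT box and no GC box (GGGCGG, found in 45% of windows) on either strand.
ENST00000504972, first bases: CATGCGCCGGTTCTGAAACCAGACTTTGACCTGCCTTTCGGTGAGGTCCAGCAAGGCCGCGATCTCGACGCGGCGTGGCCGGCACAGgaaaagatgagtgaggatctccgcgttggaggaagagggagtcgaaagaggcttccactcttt
HOXB-AS1 start of ENST00000435312: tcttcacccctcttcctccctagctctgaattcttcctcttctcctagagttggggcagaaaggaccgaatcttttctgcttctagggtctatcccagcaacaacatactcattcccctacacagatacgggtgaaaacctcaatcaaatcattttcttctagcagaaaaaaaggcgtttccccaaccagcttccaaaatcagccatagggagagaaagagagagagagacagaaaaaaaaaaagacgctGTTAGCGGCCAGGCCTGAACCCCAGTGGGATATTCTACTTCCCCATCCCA

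*HOXB-AS3*, at chr17:48549630-48606414, plus strand, crosses *HOXB5* and *HOXB6* and had 15 transcripts, of which 3 were counted. Its sum was 53 and 3 counts in the resistant libraries and 87 and 2 counts in the wild-type libraries. Replicate 1 was again high and replicate 2 near the limit of 3 counts in both groups. Resistant replicate 1 held all its counts on ENST00000465846, and wild-type replicate 1 held 23 there and 61 on ENST00000476204. ENST00000465846 was at 0 in both libraries numbered 2. edgeR put the log2 fold change at -1.01 (SE 2.11, adjusted p = 0.934), which came to 3.28 without wild-type replicate 1.

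The start that RefSeq gives for *HOXB-AS3*, in chr17:48595708-48596007, is that of ENST00000481995, which was at 0 in all libraries. The nearest 5′ end of a counted transcript lies 5538 bases away. The window is shown as the start at which no count was placed, with the transcribed 50 bases in capitals. It holds a CCAAT box on the minus strand and 6 CpG.
HOXB-AS3 start of ENST00000481995: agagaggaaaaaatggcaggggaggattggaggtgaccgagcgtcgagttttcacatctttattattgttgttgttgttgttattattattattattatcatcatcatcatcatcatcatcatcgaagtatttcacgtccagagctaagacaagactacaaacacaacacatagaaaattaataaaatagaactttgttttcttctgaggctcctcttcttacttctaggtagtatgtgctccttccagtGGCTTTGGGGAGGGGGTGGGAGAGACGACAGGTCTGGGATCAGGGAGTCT

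*HOXB-AS2*, at chr17:48557262-48560333, plus strand, has 1 transcript, which shares no exon base with another gene. It had 21 and 35 counts in the resistant libraries and 44 and 0 counts in the wild-type libraries. The wild-type libraries lay on either side of the resistant ones. edgeR put the log2 fold change at 0.02 (SE 2.06, adjusted p = 0.998), and it came to -0.97 without wild-type replicate 2 and to -0.41 without resistant replicate 2. Without wild-type replicate 1 it came to 7.69, against a single library at 0, and it was 2.04 in limma-voom and 1.75 with the replicate number as a block, where it did not pass either.

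*HOTAIR*, at chr12:53962308-53974956, minus strand, had nearly equal means in both groups and a wide spread within each. It had 320 and 43 counts in the resistant libraries and 275 and 12 counts in the wild-type libraries. Replicate 1 was high and replicate 2 low in each group, by 7.25 times in resistant cells (exact 95% counting interval 5.26 to 10.2) and by 21.1 times in wild-type cells (11.9 to 41.3). The level was 4.85 ± 5.19 CPM in resistant cells and 4.87 ± 6.26 CPM in wild-type cells (SD, n = 2 each). edgeR put the log2 fold change at -0.01 (SE 1.74, adjusted p = 0.999), and it ran from -2.05 without resistant replicate 1 to 3.45 without wild-type replicate 1, with 0.81 without resistant replicate 2.

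The longest *HOTAIR* transcript, ENST00000424518 with 7 exons and 2421 bases, had 206 and 2 counts in the resistant libraries and 0 in both wild-type libraries. ENST00000455246, with 6 exons and 918 bases, had 88 and 0 counts in the resistant libraries and 150 and 0 in the wild-type libraries. ENST00000439545, with 4 exons and 560 bases, had 24 and 41 counts in the resistant libraries and 123 and 10 in the wild-type libraries. The long transcript had over 3 counts in resistant replicate 1 alone, where it made up 64.4% of the gene. In both libraries numbered 2 the counts lay mostly on ENST00000439545. Neither of the 2 tested transcripts passed (edgeR adjusted p = 0.998 for ENST00000455246 and 0.966 for ENST00000439545).

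**Figure D3:**
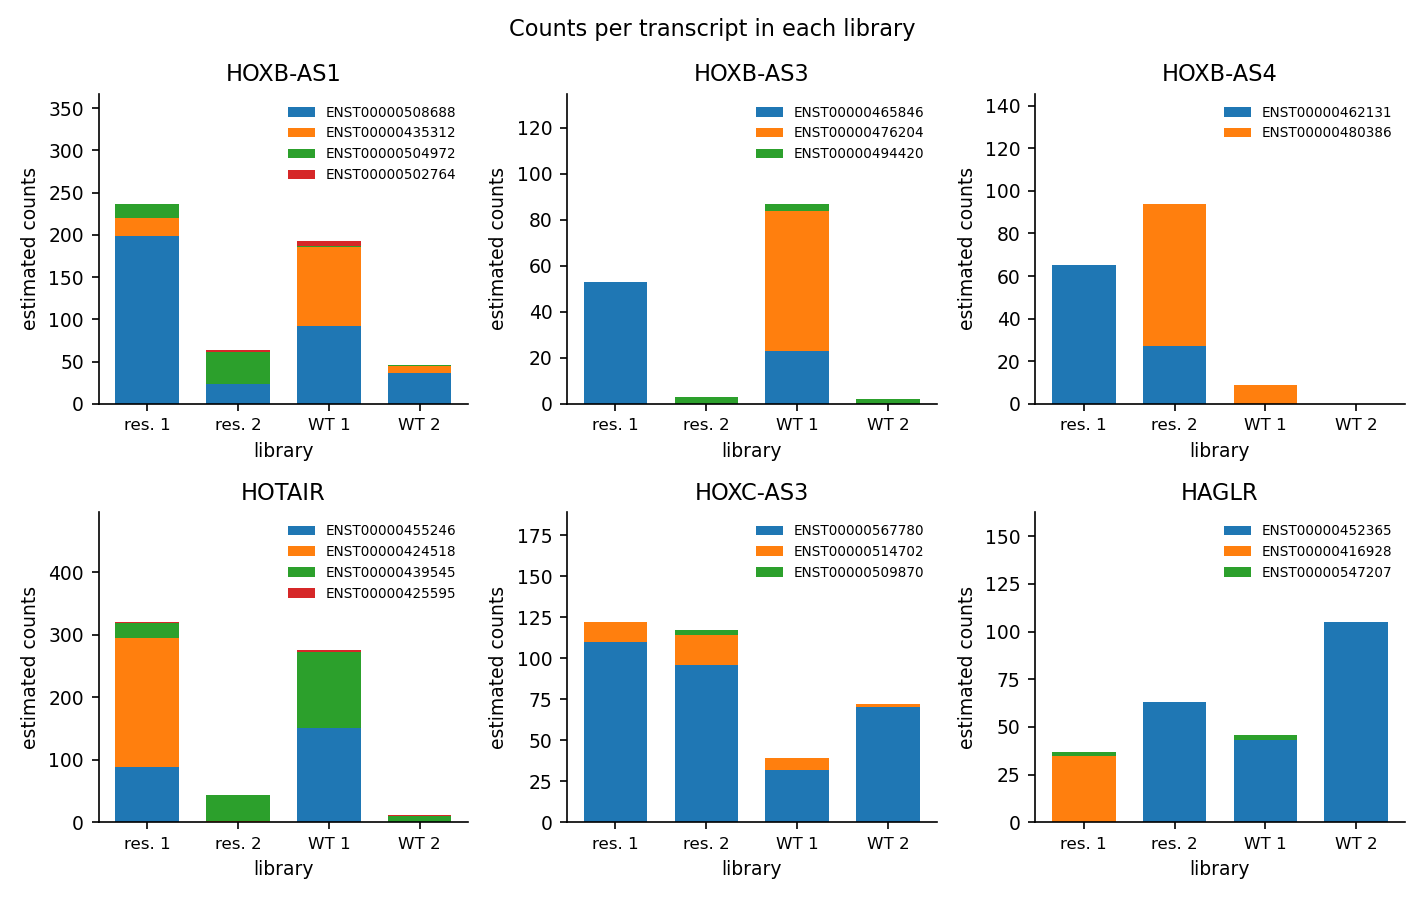
Estimated counts per transcript in the 2 resistant (res.) and 2 wild-type (WT) libraries for 6 of the genes, with transcripts stacked in colours given in each panel. The leading transcript differs between libraries of the same group for *HOXB-AS1*, *HOXB-AS3*, *HOXB-AS4*, *HOTAIR* and *HAGLR*, while ENST00000567780 leads *HOXC-AS3* in all 4.

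The replicate split was a feature of *HOTAIR*, *HOXB-AS1* and *HOXB-AS3*. In these 3 of the 10 members replicate 1 was at least 3 times replicate 2 in both groups, a rule chosen after the values were seen. Of all tested genes 2.26% met the same rule, and 3.01% of the 6444 genes whose mean CPM lay within the members' range. The opposite order, replicate 2 at least 3 times replicate 1 in both groups, was met by 0 members and by 2.02% of all genes. For *HOXB-AS1* the ratio was 3.61 in resistant cells (exact 95% counting interval 2.73 to 4.83) and 3.86 in wild-type cells (2.79 to 5.45). For *HOXB-AS3* it was 17.2 in resistant cells (5.58 to 86.1) and 40 in wild-type cells (10.8 to 336). These intervals lie above 1, but the genes were picked by this same ratio, so the intervals are no separate support for the split. They take the estimated counts as plain counts and do not cover error in placing reads on transcripts. Over all genes the deviations of same-numbered libraries were not correlated (Pearson r = -0.02 over 13745 genes, which are not independent replicates).

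The noncoding transcripts of *HOXB3*, on the strand opposite the HOXB antisense genes, showed the split in their sum, through 1 transcript. ENST00000552000, which runs from 48573982 to 48604912 and so within the span of *HOXB-AS3*, had 3059 and 188 counts in the resistant libraries and 1647 and 229 in the wild-type libraries. The other transcripts ran the opposite way: ENST00000464266 had 1 and 29 counts in the resistant libraries and 1 and 31 in the wild-type libraries, and ENST00000478644 had 0 and 20 in the resistant libraries and 0 and 9 in the wild-type libraries. Summed, the 3 had 3060 and 237 counts in the resistant libraries and 1648 and 269 counts in the wild-type libraries. Replicate 1 was 12.6 times replicate 2 in resistant cells and 5.64 times in wild-type cells. Of the counted *HOXB-AS3* transcripts, only ENST00000465846 shares bases with *HOXB3* exons, 77 in all. Of these, 58 are its exon at 48549889-48549946, outside ENST00000552000. *HOXB-AS1* ends at 48551250, before ENST00000552000 begins. No source used here says whether the counting used strand. Where exons are shared, reads of an antisense RNA and of the gene opposite therefore cannot be told apart. The part of this in the values was not tested. Of the 52 member transcripts, 36 share exon bases with another gene and 24 of these share them with a HOX gene on the other strand. The *HOTAIR* transcripts are among the 36 only through the annotated entries RF01905 and RF01906, which lie within *HOTAIR* exons on the other strand. *HOXB-AS3* and *HOXB-AS1* also share an exon of 58 bases on the same strand.

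**Figure D4:**
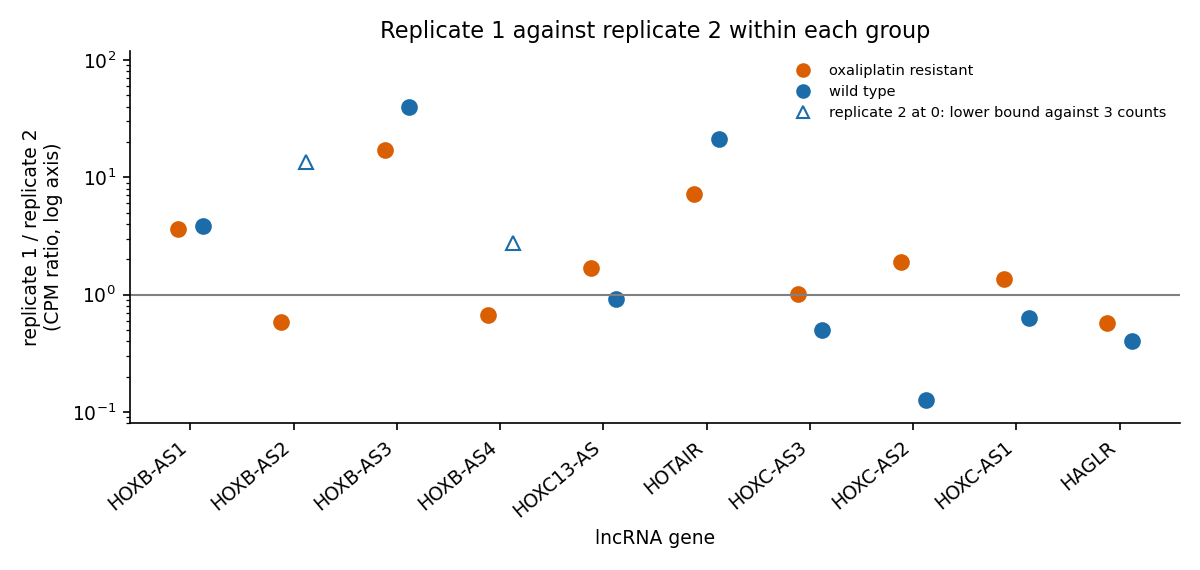
Ratio of replicate 1 to replicate 2 in CPM within the resistant (orange) and the wild-type (blue) group for each gene, on a log axis with the line at 1. Open triangles are lower bounds where replicate 2 had a count of 0. *HOTAIR*, *HOXB-AS1* and *HOXB-AS3* lie above 3 in both groups, and the 5 genes *HOXC13-AS*, *HOXC-AS1*, *HOXC-AS2*, *HOXC-AS3* and *HAGLR* lie between 0.127 and 1.89.

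*HOXC13-AS*, at chr12:53935328-53939643, minus strand, starts against *HOXC13* and was the most abundant member by CPM, which is not set per length. Its 1 transcript, ENST00000512916, has 3 exons and 1408 bases, of which 12.2% lie opposite *HOXC13*. It had 851 and 494 counts in the resistant libraries and 293 and 296 counts in the wild-type libraries. The groups did not overlap, and the resistant libraries differed from each other by more than the wild-type ones. The mean level was 1.74 times as high in resistant cells, and edgeR estimated a log2 fold change of 0.80 (SE 0.41, adjusted p = 0.694). The value was 0.38 without resistant replicate 1 and 1.13 without resistant replicate 2.

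*HOXC-AS3*, at chr12:53981509-53985519, minus strand, lies beside *HOXC10*. It had 122 and 117 counts in the resistant libraries and 39 and 72 counts in the wild-type libraries, without overlap of the groups. The level was 3.22 ± 0.0348 CPM in resistant cells and 1.98 ± 0.938 CPM in wild-type cells (SD, n = 2 each). edgeR put the log2 fold change at 0.70 (SE 0.56, adjusted p = 0.80), from 0.29 without wild-type replicate 1 to 1.29 without wild-type replicate 2. In all 4 libraries the gene was read mainly from ENST00000567780, a single exon of 2816 bases annotated as a retained intron. It took 90.2% and 82.1% of the gene in the resistant libraries and 82.1% and 97.2% in the wild-type libraries. The spliced ENST00000514702 had 12 and 18 counts in the resistant libraries and 7 and 2 in the wild-type libraries.

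*HOXC-AS2*, at chr12:53993810-53996785, minus strand, lies against *HOXC9*. All of its counts lay on ENST00000604081, the other single-exon transcript annotated as a retained intron, with 2090 bases. It had 31 and 16 counts in the resistant libraries and 4 and 29 counts in the wild-type libraries. The wild-type libraries differed from each other by more than the groups did, and edgeR estimated a log2 fold change of 0.07 (SE 1.19, adjusted p = 0.994). Its sign turned to -0.75 without wild-type replicate 1 and to -0.45 without resistant replicate 1.

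*HOXC-AS1*, at chr12:53999022-54000010, minus strand, shares no exon base with another gene. It had 39 and 28 counts in the resistant libraries and 33 and 48 counts in the wild-type libraries. Scaled to library size the resistant levels, 1.04 and 0.765 CPM, lay below the wild-type levels, 1.12 and 1.76 CPM. edgeR put the log2 fold change at -0.67 (SE 0.58, adjusted p = 0.813), from -0.96 without wild-type replicate 1 to -0.31 without wild-type replicate 2. ENST00000505700 led in each library, with 27 and 26 counts in the resistant libraries and 28 and 43 in the wild-type libraries.

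*HAGLR*, the member of the HOXD cluster, at chr2:176164051-176188958, minus strand, had 16 transcripts, of which 3 were counted. It had 37 and 63 counts in the resistant libraries and 46 and 105 counts in the wild-type libraries, and the groups overlapped. The mean level was 1.35 ± 0.521 CPM in resistant cells and 2.71 ± 1.63 CPM in wild-type cells (SD, n = 2 each). edgeR put the log2 fold change at -1.0 (SE 0.72, adjusted p = 0.770), and it came to -0.20 without wild-type replicate 2 and to -1.51 without wild-type replicate 1.

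Resistant replicate 1 differed from the other libraries in its *HAGLR* transcript. ENST00000416928, which starts inside the gene, had 35 counts there and 0 in the other 3 libraries. ENST00000452365, which starts near *HOXD1*, had 0 and 63 counts in the resistant libraries and 43 and 105 in the wild-type libraries. RefSeq gives 4 starts for *HAGLR*, and the pair of windows nearest these transcripts is printed on the minus strand of GRCh38.p14 with the transcribed 50 bases in capitals. The window chr2:176178080-176178379 starts where ENST00000416928 does. The window chr2:176188523-176188822 has its start 41 bases from that of ENST00000452365. They hold 33 and 31 CpG, where the 5 windows of the HOXB members hold 1 to 6. GGGCGG on either strand was found 2 times in each.
HAGLR inner start: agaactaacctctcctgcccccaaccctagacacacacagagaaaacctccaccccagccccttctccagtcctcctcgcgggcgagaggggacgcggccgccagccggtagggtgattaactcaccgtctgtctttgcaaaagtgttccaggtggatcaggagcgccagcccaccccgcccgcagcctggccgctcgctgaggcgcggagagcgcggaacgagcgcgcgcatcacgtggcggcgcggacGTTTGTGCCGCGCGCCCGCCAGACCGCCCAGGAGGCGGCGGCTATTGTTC
HAGLR start near HOXD1: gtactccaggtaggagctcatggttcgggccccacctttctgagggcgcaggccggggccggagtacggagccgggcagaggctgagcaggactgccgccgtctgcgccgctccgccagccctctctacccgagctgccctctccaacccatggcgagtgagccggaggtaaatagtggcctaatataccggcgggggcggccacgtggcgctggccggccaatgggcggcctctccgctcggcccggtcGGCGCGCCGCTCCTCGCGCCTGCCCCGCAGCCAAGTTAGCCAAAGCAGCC

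RefSeq windows were matched for 5 of the 10 members, by symbol. The window of *HOXB-AS2* is not printed, since its start lies 1105 bases from the transcript counted here. *HOXC-AS1*, *HOXC-AS2*, *HOXC-AS3*, *HOXC13-AS* and *HOTAIR* had no entry.

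The HOX genes themselves, read only through their noncoding transcripts, gave 8 tested genes of 11 in the table, of 28 names. edgeR called 0 of the 8 in either direction, and 3 had a log2 fold change above 0 and 5 below, with a median of -0.25. *HOXC10*, a posterior HOX gene, had 109 and 24.8 CPM in resistant cells and 86.4 and 100.4 CPM in wild-type cells (edgeR adjusted p = 0.909). The low sum of resistant replicate 2 came from ENST00000511575, with 2831 and 10 counts in the resistant libraries and 2099 and 2028 in the wild-type libraries. The other transcripts were not low there. ENST00000513413 had 1070 and 771 counts in the resistant libraries and 404 and 594 in the wild-type libraries. ENST00000514415 had 180 and 128 counts in the resistant libraries and 53 and 111 in the wild-type libraries. *HOXB3* had 81.4 and 6.48 CPM in resistant cells and 55.7 and 9.88 CPM in wild-type cells (edgeR adjusted p = 0.963). *HOXC4*, named after its values were seen, had 0 counts in both resistant libraries and 93 and 92 counts in the wild-type libraries, all on ENST00000507650. Its wild-type mean was 40.3-fold higher than a limit of 3 counts per resistant library. This limit allows for counting error in the resistant libraries only, and *HOXC4* did not pass (edgeR adjusted p = 0.323).

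Of the 7 other annotated genes inside the 3 clusters that had a transcript in the table, 5 were tested and edgeR called 0, with 2 log2 fold changes above 0 and 3 below and a median of -0.14. *HOXD-AS2* had 3.65 and 4.02 CPM in resistant cells and 1.56 and 6.91 CPM in wild-type cells (edgeR adjusted p = 0.977). *AC012531.1*, in the HOXC cluster, had 5.08 and 4.95 CPM in resistant cells and 4.70 and 3.60 CPM in wild-type cells (edgeR adjusted p = 0.904). Among the chromatin partners of *HOTAIR*, the subunits of PRC2 and of the LSD1 complex, edgeR called 0 of 9 tested genes, with 6 log2 fold changes above 0 and 3 below and a median of 0.34. *EZH2*, the catalytic subunit of PRC2 and named after its values were seen, had 22.0 and 19.1 CPM in resistant cells and 0.676 and 1.07 CPM in wild-type cells, without overlap, and did not pass (edgeR adjusted p = 0.323). The pair of highest mean were *RBBP7*, a histone-binding subunit, with 78.0 and 105.5 CPM in resistant cells and 118.9 and 101.3 CPM in wild-type cells, and *EZH1*, a methyltransferase of PRC2, with 69.1 and 117.5 CPM in resistant cells and 78.2 and 88.1 CPM in wild-type cells (edgeR adjusted p = 0.856 and 0.936). These sums hold noncoding transcripts and not the mRNAs.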

How the data were processed

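Total RNA (2 µg per library, paired-end reads of 150 bases, per the labels' protocols) was sequenced. The values that the authors deposited are whole numbers for each transcript and library, read here as estimated counts because transcripts of one gene take turns at 0. No aligner, counting tool or annotation is named in the labels. The submitters' processing notes name mm9, a mouse build, whereas the identifiers are human, so coordinates are from GENCODE release 29 on GRCh38 (84072 of 103347 Ensembl transcripts matched).

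Counts were used as deposited, per transcript and summed per gene. edgeR 4.0.16 (R 4.3.3) with TMM scaling, its expression filter at a minimum count of 10 and the quasi-likelihood test was fitted to the whole table, two-sided, with Benjamini-Hochberg adjustment at 0.05. Numbers were not used as pairs, since the labels do not say that a number marks a shared culture or day. The deviations of same-numbered libraries were not correlated over genes (Pearson r = -0.02), which cannot settle whether libraries are paired. SE is the log2 fold change over the root of F. CPM is relative to the tested genes or transcripts after TMM. A count of 0 allows up to 3 counts, 0.0798 to 0.110 CPM per gene. The fit was tested on simulated data. A pass was required only at a smaller spread between libraries than in these data. It therefore does not show which changes could be called here. With 2 libraries against 2, an exact permutation test cannot reach 0.05. DESeq2 1.42.0 and limma-voom (limma 3.58.1) were alternatives. Transcripts named have at least 10 counts in 2 libraries, at most 6 per gene, besides others needed to account for a gene's counts, chosen after their values were seen. Members and lists were chosen with earlier results of these data known.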

Additional observations from a re-analysis of the deposited data

How the results depend on the processing

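The members had 4366 counts in all, over 2 libraries a group, so low counts limit the rarer transcripts. Every member but *HOXC-AS1* also varied between libraries beyond counting error, in the resistant group, the wild-type group or both. This takes the estimated counts as plain counts. For *HOXC-AS1* the exact counting interval of the replicate ratio held 1 in both groups, at 0.814 to 2.29 in resistant and 0.394 to 1.01 in wild-type cells. DESeq2 called 632 genes and 2261 transcripts, where edgeR, limma-voom, RLE factors, library totals, both filters, the replicate block, each left-out library and both changes of the gene sum called 0. DESeq2 passed ENST00000462131 alone among the members. Of 76 member gene values outside the left-out libraries 71 kept their direction and side of the threshold. *HOTAIR*, at -0.01, came to 0.57 in limma-voom, 0.076 on library totals, 0.62 with the replicate block and 0.65 without its leading transcript, and *HOXB-AS1*, at -0.03, to 0.047 on library totals. ENST00000508688, at 0.43, came to -0.14 in limma-voom and -0.13 with the replicate block. Leaving out 1 library, the other group's spread being assumed for a lone one, reversed 9 of 40 gene values. The log2 fold change then ran from -2.05 to 3.45 for *HOTAIR*, -1.23 to 1.25 for *HOXB-AS1*, -0.97 to 7.69 for *HOXB-AS2*, -4.14 to 3.28 for *HOXB-AS3* and -0.75 to 2.19 for *HOXC-AS2*. It reversed 10 of 56 transcript values, with ranges of -9.30 to 8.31 for ENST00000455246, -2.22 to 1.26 for ENST00000439545, -0.74 to 2.21 for ENST00000604081, -1.79 to 1.26 for ENST00000508688, -0.95 to 7.69 for ENST00000464382 and -6.61 to 7.58 for ENST00000465846. Values beyond 6 in size, up or down, set counts against 0 and depend on the prior count. With no change of sign, limma-voom and the replicate block moved *HOXB-AS2* from 0.02 to 2.04 and 1.75, *HOXB-AS4* from 3.78 to 4.79 and 4.58, ENST00000452365 from -1.60 to -4.01 and -3.58 and ENST00000435312 from -2.62 to -3.58 and -3.55. ENST00000462131 came to 6.04 in limma-voom, against 8.34. The sum without the leading transcript moved *HOXC-AS3* to 1.5 and *HOXB-AS1* to -0.83. The labels do not say that a replicate number pairs libraries, and the block left 0 calls, with 781 genes at an unadjusted p under 0.05 against 1192 without it. Library totals moved the median of all transcripts to 0.14 on the log2 scale. Sums without overlapping transcripts gave no value for 6 members, and sums without the leading transcript none for 7. The cause of these shifts was not tested.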
